A study of Homo sapiens with 7 samples.

Results

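The 35 genes described here encode proteins of the Fanconi anemia pathway and of homologous recombination. They were chosen by function, as a list of gene symbols, with earlier results of these data known. The transcripts of each gene were summed, and all 35 were found among 56236 genes. All 35 had at least 10 estimated counts in every pair of libraries compared. Homologous recombination repairs double-strand breaks by copying an intact sister chromatid: the broken end is trimmed to a single strand, and BRCA1, PALB2 and BRCA2 prepare that strand to invade the matching sequence. The Fanconi pathway removes crosslinks between the strands of DNA, with a core complex that attaches ubiquitin to the pair FANCD2 and FANCI and thereby calls in nucleases and the recombination proteins. Many of these genes are expressed most strongly in dividing cells, through E2F sites in their promoters. Inherited loss of the Fanconi pathway is known for a high risk of squamous cell carcinoma, including that of the esophagus.

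RNA-Seq was available from 7 libraries of TE5 and KYSE140, established cell lines of human esophageal squamous cell carcinoma. TE5 cells carried a non-targeting scramble shRNA or an shRNA against TP63, SOX2 or CCAT1 (4 libraries), and KYSE140 cells a scramble shRNA or an shRNA against TP63 or SOX2 (3 libraries). The shRNAs were delivered by lentivirus, so the control cells were infected as well, and the labels do not tell which hairpin each library carries. In the authors' gene tables the shSOX2 libraries of both lines have the same name suffix, as do the shTP63 libraries. TP63 and SOX2 are transcription factors of squamous epithelium, and CCAT1 is a long non-coding RNA. The design asks what each silencing does to gene expression relative to the scramble library of the same line.

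Each condition of each line was sequenced as 1 library, and no difference between a pair of libraries can be set against the spread of replicates. The estimated counts summed to between 68532611 and 98036494 per library, and the members held between 431 and 18631 estimated counts each. Silencing left TP63 at 25.5% of its scramble level in TE5 and 26.1% in KYSE140, SOX2 at 38.6% in TE5 but 76.4% in KYSE140, and CCAT1 at 30.9% in TE5. The targets were not independent of each other: SOX2 was at 65.6% in TE5 shTP63, and CCAT1 at 37.4% to 50.6% in the shTP63 and shSOX2 libraries of both lines. In KYSE140 shTP63, however, SOX2 was at 103%, and TP63 was at 116% in TE5 shSOX2 and 126% in KYSE140 shSOX2. By their labels, the scramble library and the knockdown libraries of a line ran in different lanes, and for TE5 on different flow cells, so lane and silencing cannot be told apart in a comparison with scramble. Of 7 squamous epithelium markers, all 7 reached 1 TPM (Kallisto's unit for a level, scaled for transcript length and depth) in KYSE140 and 6 in TE5, where KRT14, a keratin of the basal layer, was at 0.202 to 0.546 TPM. Their summed level lay between 1065 and 1836 TPM in TE5 and between 12180 and 30040 TPM in KYSE140. Of the markers of other cells, 4 of leukocytes summed to at most 1.72 TPM, 2 of endothelium to at most 9.28 TPM, and 5 of fibroblasts to 13.5 to 44.9 TPM, most of it COL1A1, while PDGFRB stayed at or below 0.065 TPM. In bulk RNA, fewer cells of one kind and less RNA per cell cannot be told apart.

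In scramble cells the members were expressed at a median of 22.9 TPM in TE5 and 23.2 TPM in KYSE140. UBE2T, the ubiquitin-conjugating enzyme of the Fanconi pathway, was the highest in TE5 scramble (111 TPM), and FANCG, a subunit of the core complex, in KYSE140 scramble (113 TPM). FANCF, another core subunit, was the lowest in both (8.44 and 2.90 TPM). For some members the lines differed more than any silencing did. FANCE, the core subunit that contacts FANCD2, lay between 1315 and 2454 normalized counts in the 4 TE5 libraries and between 5803 and 10929 in the 3 KYSE140 libraries. CHEK2, a checkpoint kinase, showed the opposite, with 2623 to 3251 in TE5 and 914 to 1055 in KYSE140. The scramble libraries of the lines were 4.45-fold apart for FANCE and 3.55-fold apart for CHEK2. FANCG was 3.45-fold higher in KYSE140 scramble, MRE11 (the nuclease of the MRN complex) 2.66-fold and FANCD2 2.04-fold. RAD51AP1, a strand invasion protein, was 2.96-fold higher in TE5 scramble, FANCF 2.61-fold, BRCA2 2.20-fold and the kinase ATR 2.06-fold.

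**Figure D1:**
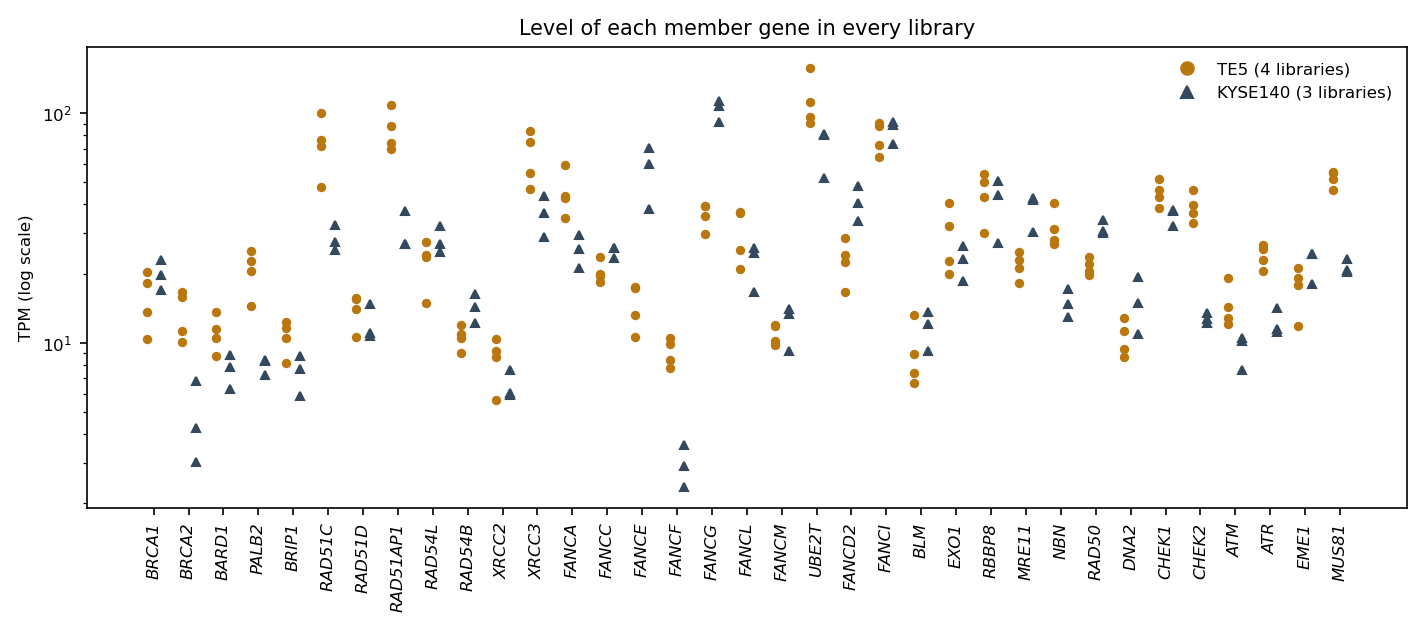
TPM on a log scale for each of the 35 genes, with TE5 libraries as circles and KYSE140 libraries as triangles, 1 point per library. FANCE and FANCG stand higher in all KYSE140 libraries, and CHEK2, FANCF and RAD51AP1 stand higher in all TE5 libraries.

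Without overlap between libraries, 10 members were higher in KYSE140 and 11 were lower, and 14 overlapped. Over 27327 genes the shares were 25.0% higher and 29.0% lower, near the members' 10 and 11 of 35. The higher ones included RAD50, DNA2, FANCM, FANCC and EME1, and the lower ones included PALB2, RAD51C, NBN, ATM and MUS81. The lines were sequenced in different lanes, and the libraries of a line carry different shRNAs and are not replicates. BRCA1 and RBBP8 were among the members that overlapped.

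The promoters of 31 members are in the RefSeq promoter table (GRCh38.p14, 250 bases before to 50 after a start site), in 41 entries. RAD54B, FANCI, NBN and DNA2 have no entry there. The E2F word was searched as TTTCCCGC, TTTCGCGC, TTTGCCGC or TTTGGCGC on both strands. It was present in the promoters of 5 members, 12.2% of the member entries and 3.31% of 35116 entries in all. These windows of the gene's strand are shown because they hold the E2F word, in capitals, of exonuclease EXO1, of FANCD2, of XRCC2, and of the core subunits FANCC and FANCA.
EXO1, chr1:241848197-241848226, plus strand: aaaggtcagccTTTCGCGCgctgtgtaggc
FANCD2, chr3:10026424-10026453, plus strand: cgtcgggcctgGCGGGAAAgtcgaaaacta
XRCC2, chr7:152676102-152676131, minus strand: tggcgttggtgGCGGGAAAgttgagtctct
FANCC, chr9:95317863-95317892, minus strand: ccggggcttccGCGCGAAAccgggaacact
FANCC, chr9:95317737-95317766, minus strand: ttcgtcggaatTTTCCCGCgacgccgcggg
FANCA, chr16:89816801-89816830, minus strand: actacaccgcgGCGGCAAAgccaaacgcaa
Counting the start site as base 1, the capitals begin at base 5 in EXO1 and base 22 in XRCC2, and 2 bases before the start site in FANCD2, whereas those of FANCC and FANCA lie farther upstream. CCAAT was found in 48.8% of the member entries and 34.6% of all, and TTTGAA (the CHR word) in 9.76% and 15.2%. The SOX core CATTGT was found in 0 of the member entries and in 10.8% of all entries, and the p53 family core (CATG, 6 bases of any kind, CATG) in the promoter of ATR alone, with 0.373% of all entries holding it. A match, or its absence in these windows, is a description of the letters and not a binding site.

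Upon TP63 silencing in TE5, 29 of the 35 genes were below their scramble level and 11 were lower by more than 1.5-fold. Of all 24481 genes compared, 11518 were below scramble, and 6471 of the 10270 genes in the count range of the members were. The median log2 fold change (the log2 ratio of TMM-normalized counts, each with 1 added) was -0.36, against 0.05 over 24481 genes with at least 10 counts in either library and -0.14 over the 10270 genes in the count range of the members. No member was more than 1.5-fold higher. Over all genes 14.6% were lower and 24.3% higher by that fold, and 15.9% were lower among genes in the count range of the members. No member passed the 2-fold limit that 20.0% of all genes passed in either direction. Of the 10270 genes in the count range, 714 were higher by more than 1.5-fold. Past 2-fold, 433 genes of that range were lower and 236 higher. Without scaling between libraries, which moved the median of all genes by 0.16, the members' median was -0.20 and 7 members were lower by more than 1.5-fold.

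**Figure D2:**
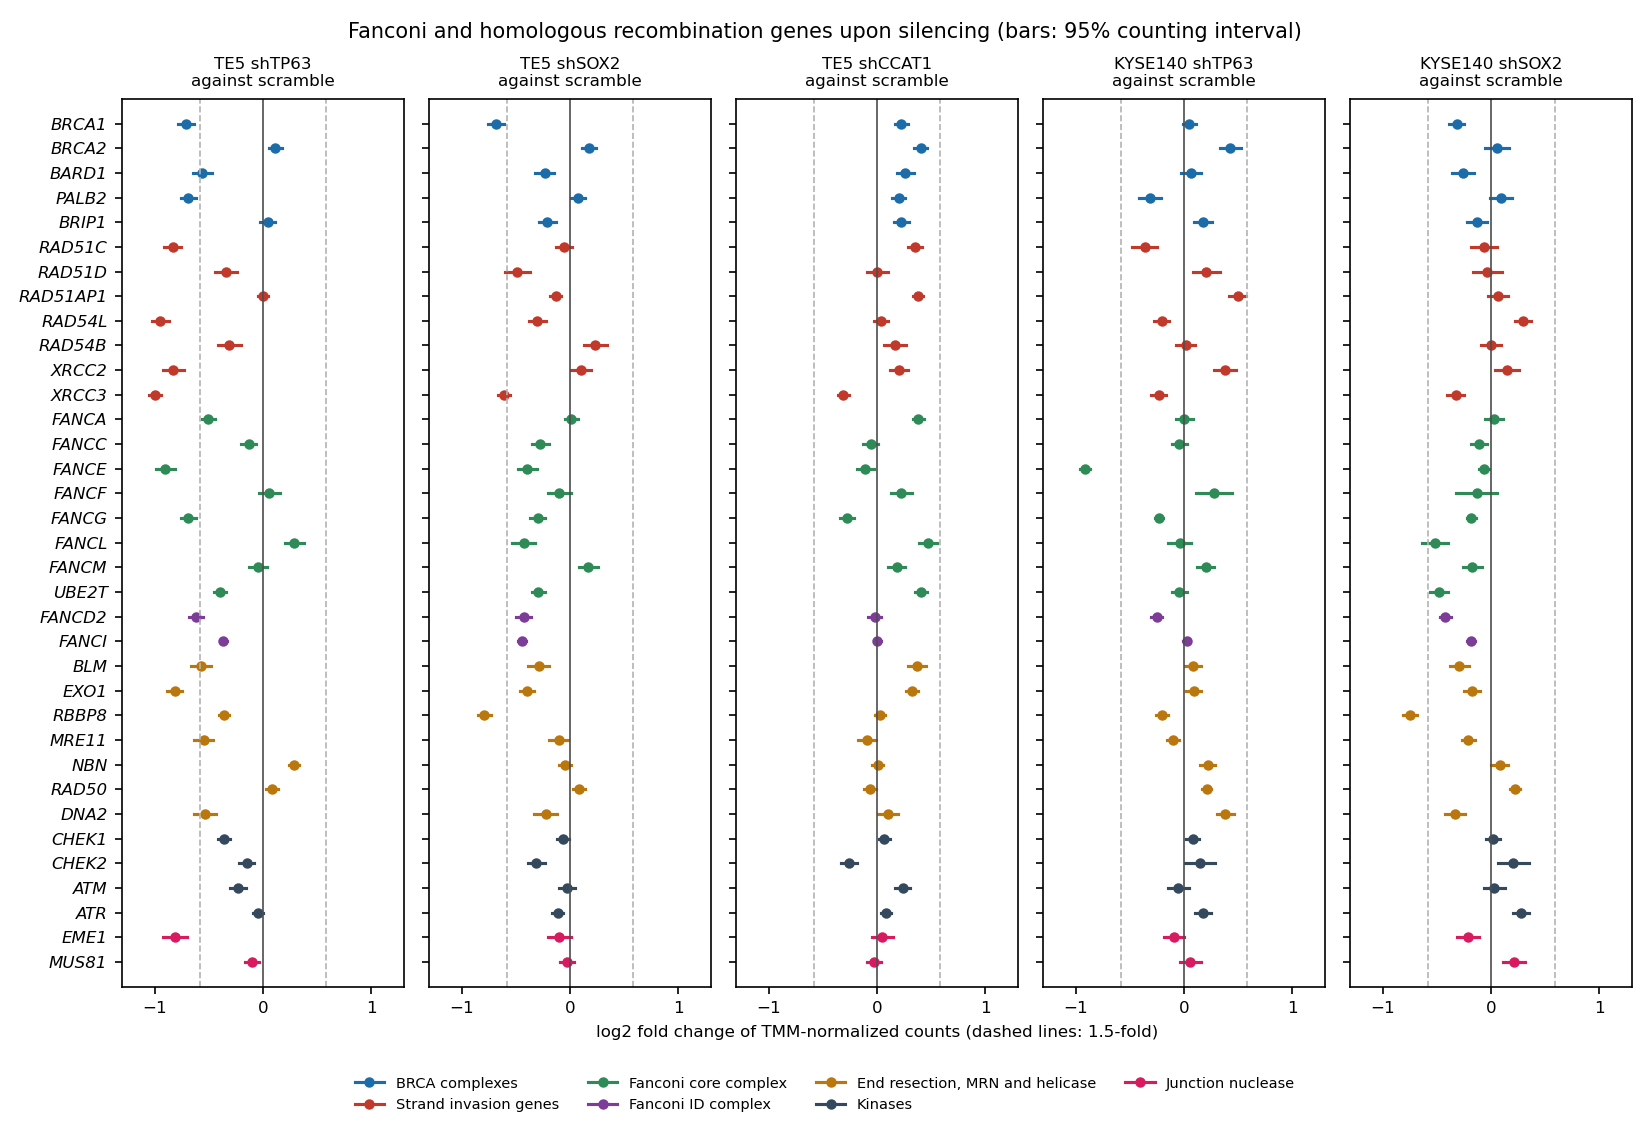
Log2 fold change of the 35 genes in the 5 comparisons with scramble, coloured by role, with bars for the 95% counting interval of a pair of libraries. Most members lie left of 0 in TE5 shTP63 (29 of 35), and most lie right of 0 in TE5 shCCAT1 (26 of 35). Among genes in the members' count range, 6471 of 10270 were below 0 in TE5 shTP63. In TE5 shCCAT1, 4321 of 10269 were above 0.

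The strand invasion genes were the lowest group in this comparison, with a median of -0.83 over 7 genes. RAD51C, itself also a Fanconi gene (hg19 chromosome 17, 56769934 to 56812972), had 3140, 1765, 3022 and 4012 normalized counts in TE5 scramble, shTP63, shSOX2 and shCCAT1, and 1542, 1199 and 1475 in KYSE140 scramble, shTP63 and shSOX2. The shTP63 library was the lowest of its line in both lines. Its log2 fold change was -0.83 in TE5 (95% counting interval -0.91 to -0.75) and -0.36 in KYSE140 (-0.48 to -0.25). RAD54L, the motor protein of strand invasion (chromosome 1, 46712133 to 46744152), had 3314, 1720, 2690 and 3398 in TE5 and 3696, 3202 and 4526 in KYSE140 in the same order. It was lower by 0.95 in TE5 (interval -1.02 to -0.87) and was at -0.21 in KYSE140 (-0.28 to -0.13). XRCC2, which forms a complex with RAD51D, had 1983, 1118, 2127 and 2284 in TE5 and 1552, 2015 and 1719 in KYSE140. Its shTP63 library was the lowest in TE5 and the highest in KYSE140, with log2 fold changes of -0.83 (interval -0.93 to -0.73) and 0.38 (0.27 to 0.48). These are gene sums, and the protein-coding share of XRCC2 counts was 28.4% in KYSE140 scramble and 17.2% in KYSE140 shTP63.

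The lowest value of all members in this comparison was that of XRCC3, the partner of RAD51C, with 7200 normalized counts in scramble and 3614 in shTP63 (-0.99, interval -1.05 to -0.94). This value is uncertain, because 71.5% of the 31-base words of XRCC3 also occur in other genes, mostly in the neighbouring KLC1. In KYSE140 XRCC3 was at -0.23. RAD51D was at -0.34 in TE5 and 0.21 in KYSE140. RAD54B, which shares 64.4% of its words with other genes and is uncertain too, was at -0.31 and 0.02. RAD51AP1 was level in TE5 (7019 and 7017 normalized counts) and at 0.49 in KYSE140, the highest value of any member there.

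Among the BRCA proteins, BRCA1 had 3805, 2328, 2370 and 4440 normalized counts in TE5 scramble, shTP63, shSOX2 and shCCAT1, and 5346, 5534 and 4286 in KYSE140 scramble, shTP63 and shSOX2. It was low in both the shTP63 and the shSOX2 library of TE5, and in KYSE140 only the shSOX2 library lay below scramble. With TP63 silenced it was at -0.71 in TE5 (interval -0.78 to -0.64) and 0.05 in KYSE140 (-0.01 to 0.11). PALB2, the bridge between BRCA1 and BRCA2 (chromosome 16, 23614481 to 23652642), had 3789, 2349, 3981 and 4354 in TE5 and 1866, 1499 and 1986 in KYSE140. The shTP63 library was the lowest in both lines, at -0.69 (interval -0.76 to -0.62) and -0.32 (-0.42 to -0.21). BARD1, the partner of BRCA1 in its ubiquitin ligase, was at -0.56 and 0.06. BRCA2, which acts downstream of PALB2, had 3743, 4052, 4218 and 4957 in TE5 and 1704, 2292 and 1766 in KYSE140, and scramble was the lowest library in both lines. Its values upon TP63 silencing were 0.11 (interval 0.05 to 0.18) and 0.43 (0.33 to 0.53). The helicase BRIP1 was at 0.04 and 0.17.

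**Figure D3:**
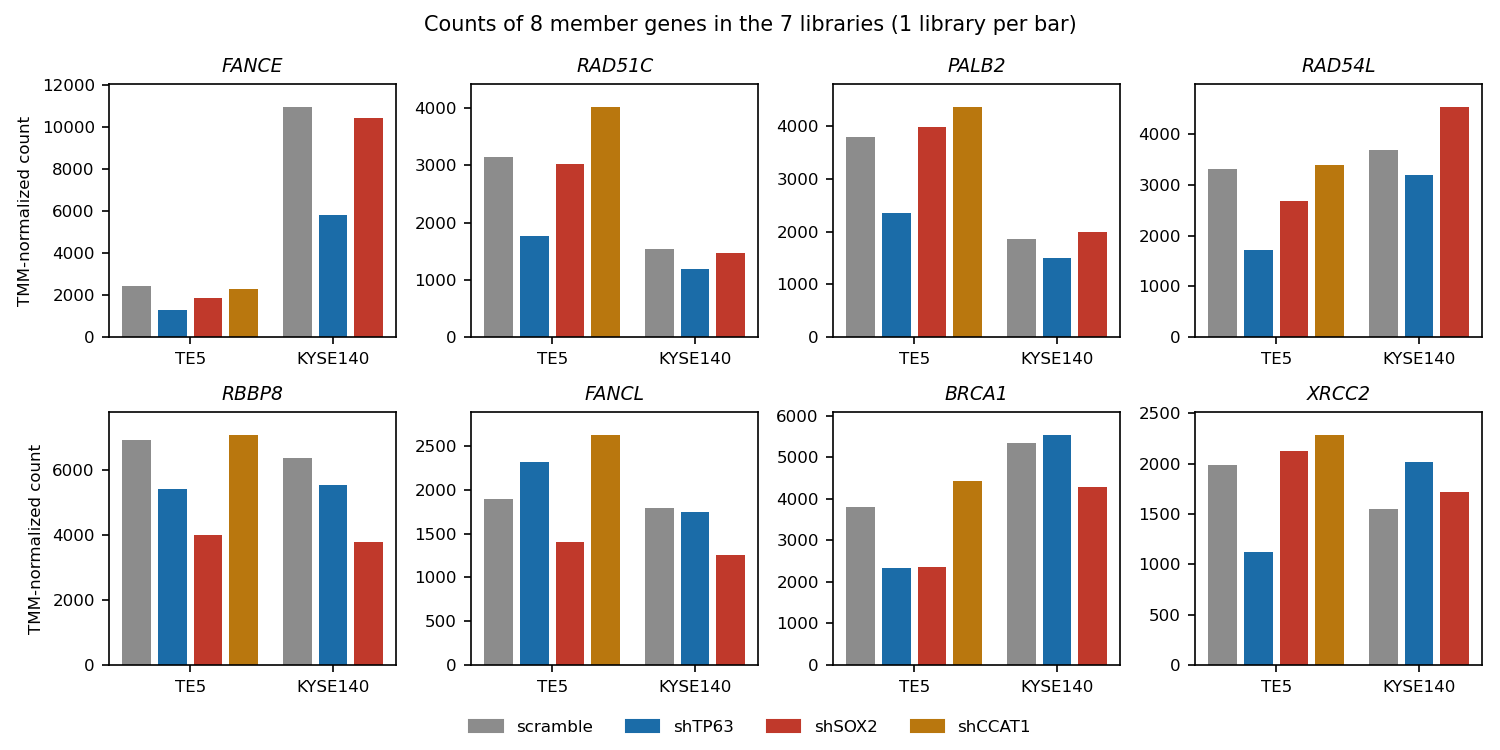
TMM-normalized counts of 8 of the genes in the 7 libraries, 1 bar per library, coloured by shRNA, with each axis from 0. The shTP63 bar is the lowest of its line for FANCE, RAD51C, PALB2 and RAD54L in both lines, and the shSOX2 bar is the lowest for RBBP8 and FANCL.

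In the Fanconi pathway the response was uneven. FANCE (chromosome 6, 35420115 to 35434881) had 2454, 1315, 1867 and 2279 normalized counts in TE5 scramble, shTP63, shSOX2 and shCCAT1, and 10929, 5803 and 10426 in KYSE140 scramble, shTP63 and shSOX2. Although the lines differ about 4-fold in its level, its log2 fold change with TP63 silenced was nearly the same, -0.90 in TE5 (interval -0.99 to -0.81) and -0.91 in KYSE140 (-0.96 to -0.87). It was the only member lower by more than 1.5-fold in both lines, as were 3.63% of genes in the members' count range. Only 1 transcript, which is protein-coding, was assigned to FANCE, so its value does not rest on how reads were split between the transcripts of the gene. FANCG was at -0.69 in TE5 and -0.23 in KYSE140, and FANCA, another core subunit, was at -0.50 and 0.00. FANCL, the ubiquitin ligase of the core complex, had 1894, 2318, 1408 and 2627 in TE5 and 1795, 1744 and 1256 in KYSE140. Its shSOX2 library was the lowest in each line, and upon TP63 silencing it was at 0.29 in TE5 (interval 0.21 to 0.38), the highest value of any member, and at -0.04 in KYSE140 (-0.14 to 0.06). FANCC, FANCF and FANCM lay between -0.13 and 0.06 in TE5 and between -0.04 and 0.28 in KYSE140, and UBE2T was at -0.40 and -0.05. FANCD2, the substrate of the pathway, had 4199, 2731, 3120 and 4139 in TE5 and 8556, 7179 and 6388 in KYSE140, with scramble the highest library in each line. It was at -0.62 (interval -0.69 to -0.55) and -0.25 (-0.30 to -0.20), and its partner FANCI at -0.36 and 0.02.

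Of the end resection genes, EXO1 had 4278 normalized counts in TE5 scramble and 2431 in TE5 shTP63, a log2 fold change of -0.81 (interval -0.88 to -0.75), whereas its KYSE140 libraries, with 3978 and 4227, were nearly level (0.09, interval 0.02 to 0.15). The helicase BLM was at -0.57 and 0.08, and the nuclease and helicase DNA2 at -0.53 and 0.38. RBBP8, whose protein CtIP starts resection together with the MRN complex, was at -0.36 and -0.21. Within the MRN complex MRE11 was at -0.55 in TE5 and -0.10 in KYSE140, NBN at 0.29 and 0.22, and RAD50 at 0.08 and 0.21. Of the junction nuclease, EME1 was at -0.81 in TE5 (1611 and 919 normalized counts) and its catalytic partner MUS81 at -0.10.

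The kinases that signal damage had a median of -0.19 upon TP63 silencing in TE5, nearest to 0 of the 7 roles. ATM had 3011, 2572, 2961 and 3550 normalized counts in TE5 scramble, shTP63, shSOX2 and shCCAT1, and 2175, 2099 and 2221 in KYSE140 scramble, shTP63 and shSOX2. These are gene sums, and most ATM counts were not in transcripts annotated as protein-coding. The protein-coding share of ATM counts was 22.33%, 35.15%, 21.14% and 29.17% in TE5 and 19.64%, 21.47% and 14.1% in KYSE140, in the same order. The coding part of ATM therefore need not follow its sum. ATR had 7056, 6819, 6526 and 7479 in TE5 and 3422, 3865 and 4152 in KYSE140, and scramble was its lowest library in KYSE140. Upon TP63 silencing ATM was at -0.23 in TE5 (interval -0.30 to -0.15) and -0.05 in KYSE140 (-0.14 to 0.04), and ATR at -0.05 and 0.18. The effector kinases CHEK1 and CHEK2 were at -0.36 and -0.15 in TE5 and at 0.08 and 0.15 in KYSE140.

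In KYSE140 the members as a group lay near their scramble level upon TP63 silencing. The median was 0.05, against 0.04 over 21922 genes, with 14 members below 0 and 21 above, and it was 0.12 without scaling and 0.14 with TPM. Among the 10210 genes in the count range of the members, 5241 were below 0 and 4969 above. FANCE alone was lower by more than 1.5-fold (9.90% of all genes, and 5.70% of genes in the count range of the members, were), no member was higher by that fold (16.1% of all genes were), and none passed 2-fold (12.8% of all genes did). Of the 10210 genes in the count range, 270 were higher by more than 1.5-fold. Past 2-fold, 119 genes of that range were lower and 37 higher. A list of 16 proliferation genes had a median of -0.70 upon TP63 silencing in TE5, where 16 of 16 were below 0, and -0.02 in KYSE140. The part of proliferation in the members' values was not tested.

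**Figure D4:**
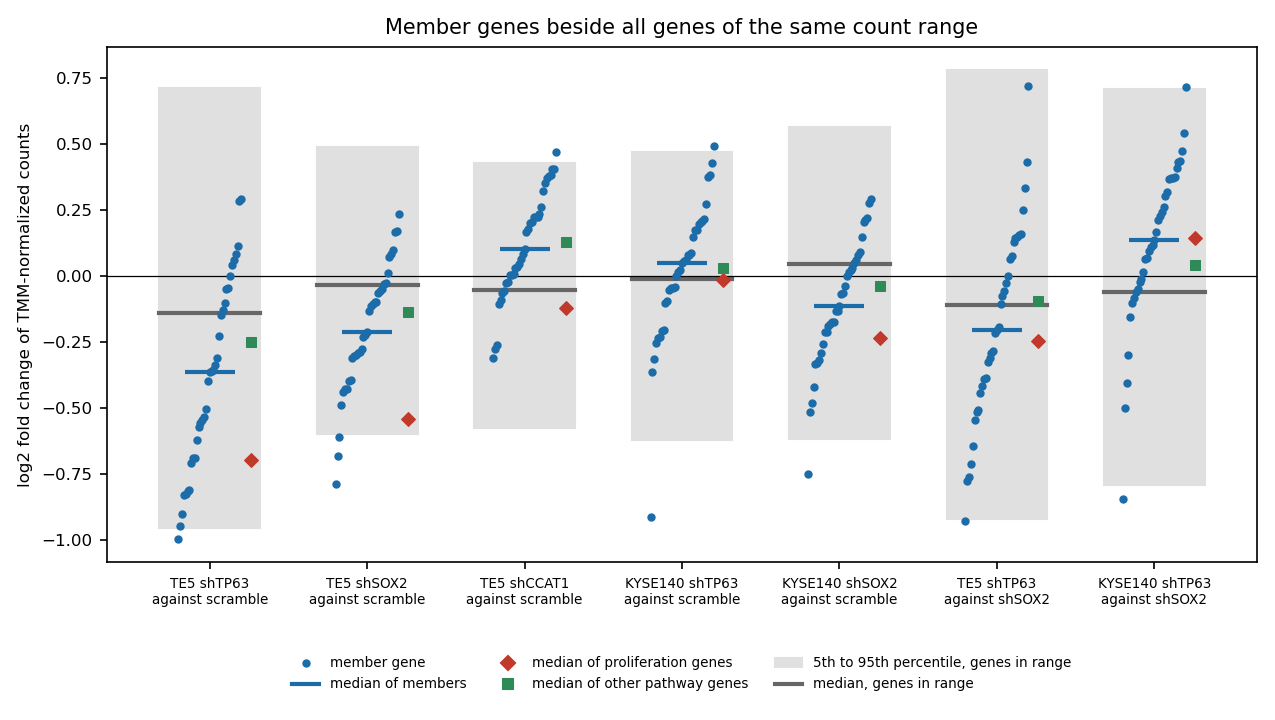
Log2 fold change of each of the 35 genes (points) in 7 comparisons, beside the 5th to 95th percentile of all genes in the same count range (grey boxes) and the medians of the proliferation genes (diamonds) and of other genes of the pathway (squares). The members' median is lowest in TE5 shTP63 (-0.36), where the proliferation genes are at -0.70.

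Upon SOX2 silencing, 28 members were below scramble in TE5 and 21 in KYSE140, with medians of -0.21 and -0.11. Among genes in the count range of the members, 5561 of 10152 were below scramble in TE5 and 4449 of 10132 in KYSE140. The medians over all genes were -0.01 and 0.05. With TPM the members' medians were -0.12 and -0.27, and without scaling they were -0.19 and -0.20. In TE5, 3 members were lower by more than 1.5-fold (RBBP8, BRCA1 and the uncertain XRCC3), where 11.6% of all genes and 5.37% of genes in the count range were, and no member was higher, where 12.9% of all genes were. In KYSE140 RBBP8 alone was lower by that fold, where 12.9% of all genes and 5.60% of genes in the count range were, and no member was higher, where 13.7% were. No member passed 2-fold, which 10.9% of all genes did in TE5 and 13.0% in KYSE140. In the count range, 314 of 10152 genes in TE5 and 459 of 10132 in KYSE140 were higher by more than 1.5-fold. Past 2-fold, 106 genes of that range were lower and 51 higher in TE5, and 148 and 92 in KYSE140. In KYSE140 SOX2 itself was at 76.4% of its scramble level, so by SOX2 RNA this comparison rests on a weak silencing. CCAT1 was at 42.7% of scramble in KYSE140 shSOX2 and at 50.6% in TE5 shSOX2. The SOX2 protein is not measured in these libraries. The proliferation genes had medians of -0.54 in TE5 and -0.23 in KYSE140.

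RBBP8 (chromosome 18, 20378224 to 20606451) had 6924, 5401, 4005 and 7066 normalized counts in TE5 scramble, shTP63, shSOX2 and shCCAT1, and 6373, 5527 and 3792 in KYSE140 scramble, shTP63 and shSOX2. The shSOX2 library was the lowest and the shTP63 library came next in each line. Its log2 fold change upon SOX2 silencing was -0.79 in TE5 (interval -0.85 to -0.73) and -0.75 in KYSE140 (-0.81 to -0.68), and 1.92% of genes in the members' count range were lower by more than 1.5-fold in both lines. The 3′ UTR of its most abundant coding transcript holds the 7-base word GAAGGAT, which was picked because several of the genes lowest upon SOX2 silencing in these same libraries hold it. The word is found in 9.26% of 12632 genes and in 2 of 34 members with a 3′ UTR to search, RBBP8 and RAD51D. The sites are shown on the gene's strand, from hg19, with the word in capitals.
RBBP8, chr18:20606210-20606238, plus strand: aaacagaaacaGAAGGATgaaggacagtt
RAD51D, chr17:33423381-33423409, minus strand: tacaggcaggaGAAGGATcgcctcctgtg
In RBBP8 the word begins at base 18 of a 3′ UTR of 246 bases, and in RAD51D at base 4574 of an annotated 3′ UTR of 8732 bases. The same RAD51D transcript was only 2404 bases long in the sequences to which reads were assigned. The RAD51D site thus lies outside the transcript that was counted, and its counts do not show that the measured RNA holds the word. RAD51D had 1521 and 1085 normalized counts in TE5 scramble and shSOX2 (log2 fold change -0.49, interval -0.60 to -0.37) and 1173 and 1144 in KYSE140 (-0.04, interval -0.17 to 0.10). The part of this word in either value was not tested.

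Of the other members, BRCA1 was at -0.68 in TE5 (interval -0.76 to -0.61) and -0.32 in KYSE140 (-0.38 to -0.25), FANCL at -0.43 and -0.52, UBE2T at -0.29 and -0.48, FANCD2 at -0.43 and -0.42, and FANCI at -0.44 and -0.19. FANCL is the ligase and UBE2T the conjugating enzyme that attach ubiquitin to FANCD2 and FANCI. In all, 16 members had a counting interval below 0 in both lines, as did 21.7% of genes in the members' count range, and 2 (XRCC2 and RAD50) had one above 0 in both, as did 22.5%. The highest values were RAD54B at 0.23 (uncertain), BRCA2 at 0.17 and FANCM at 0.17 in TE5, and RAD54L at 0.29, ATR at 0.28 and RAD50 at 0.22 in KYSE140. ATM was at -0.02 and 0.03, and ATR was at -0.11 in TE5. BRCA2 was at 0.05 in KYSE140.

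**Figure D5:**
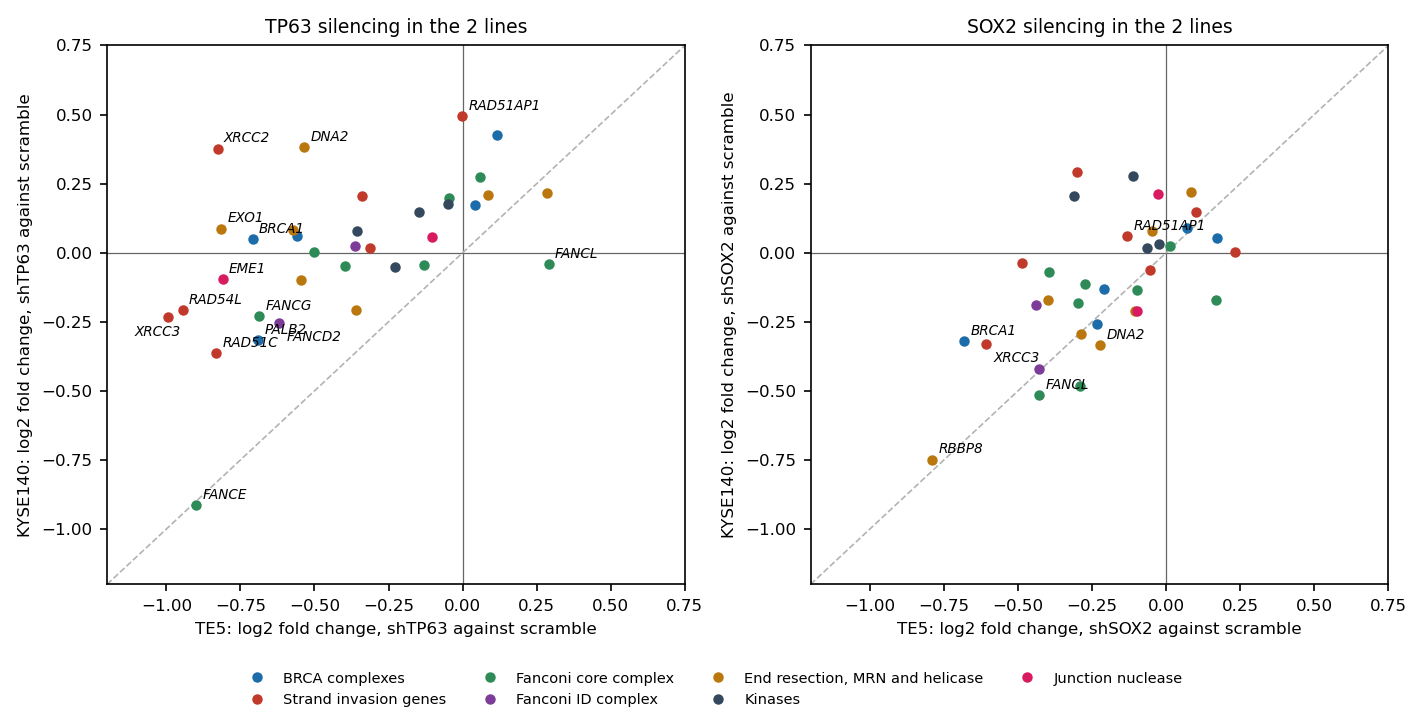
Log2 fold change of each of the 35 genes in TE5 (x axis) and KYSE140 (y axis) upon TP63 silencing (left) and SOX2 silencing (right), coloured by role, with the line of equality dashed. FANCE lies near that line at -0.90 and -0.91 upon TP63 silencing and RBBP8 at -0.79 and -0.75 upon SOX2 silencing, while XRCC2 and DNA2 lie on opposite sides of 0 in the lines upon TP63 silencing.

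Upon CCAT1 silencing, which was measured in TE5 only, 26 members were above scramble and 9 below, with a median of 0.10 against 0.03 over all genes and -0.05 over genes in the count range of the members. Among the 10269 genes in that range, 4321 were above scramble and 5948 below. No member was lower by more than 1.5-fold (11.5% of all genes and 4.76% of genes in the count range were), none was higher by that fold (20.0% of all genes were), and none passed 2-fold (17.6% did). Of the 10269 genes in the count range, 195 were higher by more than 1.5-fold. Past 2-fold, 61 genes of that range were lower and 21 higher. Among the members FANCL was the highest at 0.47 (interval 0.39 to 0.55), then UBE2T at 0.41 and BRCA2 at 0.41 (0.35 to 0.47). All 5 BRCA genes were above scramble, BRCA1 at 0.22 among them. The lowest were XRCC3 at -0.31, FANCG at -0.28 (-0.34 to -0.21) and CHEK2 at -0.26 (-0.33 to -0.19). FANCD2 was at -0.02, ATM at 0.24 and ATR at 0.08. The 3 silencings in TE5 share 1 scramble library, as the 2 in KYSE140 do, so their values are not independent. The proliferation genes had a median of -0.12 upon CCAT1 silencing. Without scaling between libraries that median was 0.04 and the members' median 0.26.

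Both lines were then fitted together with edgeR's quasi-likelihood test over 6 libraries and 26059 features, so that the other line stands in for a replicate of each condition. With p-values adjusted after Benjamini and Hochberg and a limit of 0.1, 0 of the 35 members were called for TP63 silencing, where 0% of all features were called, 0 for SOX2 silencing, where 0.0767% were, and 0 for shTP63 against shSOX2, where 2.39% were. At an unadjusted p under 0.05, 7 members were lower and 0 higher upon TP63 silencing, when 13.4% of all features passed in either direction, and 5 were lower and 0 higher upon SOX2 silencing, when 8.65% passed. DESeq2 at the same limit called 7 members lower upon TP63 silencing (FANCE, RAD51C, PALB2, XRCC3, FANCG, FANCD2 and RAD54L), when it called 12.6% of the 15954 features it gave an adjusted p in either direction, and RBBP8 alone upon SOX2 silencing, when it called 5.09% of 14944. By direction, the features under an unadjusted edgeR p of 0.05 were 2052 lower and 1432 higher upon TP63 silencing. Upon SOX2 silencing they were 1288 lower and 967 higher. DESeq2 called 1462 features lower and 553 higher upon TP63 silencing, and 498 lower and 262 higher upon SOX2 silencing. For FANCE the TP63 coefficient was -0.89 on the log2 scale (standard error 0.15). Its adjusted p was 0.147 from edgeR and 4.56e-05 from DESeq2. RBBP8 had -0.79 upon SOX2 silencing (standard error 0.13) with an adjusted p of 0.230 from edgeR and 1.70e-05 from DESeq2.

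The next smallest p-values upon TP63 silencing were those of RAD51C (-0.58, standard error 0.18, edgeR adjusted p = 0.270) and XRCC3 (-0.60, standard error 0.19, edgeR adjusted p = 0.283), and upon SOX2 silencing those of FANCD2 (-0.44, standard error 0.14, edgeR adjusted p = 0.500) and FANCL (-0.49, standard error 0.17, edgeR adjusted p = 0.536). BRCA1 was at -0.31 and -0.53 in these fits, with edgeR adjusted p-values of 0.532 and 0.538, and FANCD2 was at -0.42 upon TP63 silencing (edgeR adjusted p = 0.306). BRCA2 was at 0.29 and 0.10, ATM at -0.12 and -0.02, and ATR at 0.08 and 0.06, with edgeR adjusted p-values from 0.488 to 0.987.

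The shTP63 and shSOX2 libraries of a line come from the same lane, so their ratio uses no scramble library. In TE5 the members' median for shTP63 against shSOX2 was -0.20, with 5 members lower by more than 1.5-fold (15.0% of all genes, and 13.9% of those in the count range, were), 1 higher (23.8% were) and none past 2-fold (20.1% were). The TE5 median was 0.03 over all genes and -0.11 over the 10270 genes in the count range. Of the latter, 874 were higher by more than 1.5-fold. Past 2-fold, 407 genes of that range were lower and 298 higher. Without scaling the members' median was -0.061 with 3 members lower, and with TPM it was -0.12 with 3 members higher. XRCC2 was the lowest at -0.93 (interval -1.02 to -0.83), then RAD51C at -0.78 (-0.85 to -0.70) and PALB2 at -0.76 (-0.83 to -0.69), and FANCL was the highest at 0.72 (0.63 to 0.81), with RBBP8 at 0.43 and NBN at 0.33 next. In KYSE140 the median was 0.14, with FANCE lower by more than 1.5-fold (-0.85, interval -0.89 to -0.80), where 14.0% of all genes and 9.57% of those in the count range were, DNA2 higher (0.72, interval 0.63 to 0.80), where 19.2% were, and none past 2-fold, where 16.9% were. The KYSE140 median was 0.009 over all genes and -0.06 over the 10190 genes in the count range. Of the latter, 753 were higher by more than 1.5-fold. Past 2-fold, 278 genes of that range were lower and 204 higher. Without scaling the members' median was 0.29 with 5 members higher, and with TPM it was 0.41 with 7 members higher. RAD54L (-0.50) and PALB2 (-0.41) followed FANCE, and RBBP8 (0.54) and FANCL (0.47) followed DNA2. BRCA1 was at -0.03 in TE5 and 0.37 in KYSE140, BRCA2 at -0.06 and 0.38, FANCD2 at -0.19 and 0.17, ATM at -0.20 and -0.08, and ATR at 0.06 and -0.10. In the fit over both lines FANCE was at -0.65 (standard error 0.15, edgeR adjusted p = 0.121), RBBP8 at 0.52 (standard error 0.13, edgeR adjusted p = 0.132) and FANCL at 0.63 (standard error 0.17, edgeR adjusted p = 0.165), and 4 members were lower and 2 higher at an unadjusted p under 0.05, which 16.2% of all features passed. DESeq2 called FANCE, PALB2 and RAD51C lower and RBBP8 and FANCL higher, when it called 16.8% of the 16460 features it gave an adjusted p. The scramble libraries entered these fits, where they bear on the estimate of the spread.

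Another 58 genes of these pathways, none of them members, had medians of -0.25, -0.13 and 0.13 upon TP63, SOX2 and CCAT1 silencing in TE5 and 0.03 and -0.04 upon TP63 and SOX2 silencing in KYSE140. Of these, 7 were lower by more than 1.5-fold and 1 higher upon TP63 silencing in TE5, 7 and 1 upon SOX2 silencing, and 0 and 0 upon CCAT1 silencing, against 0 and 2 upon TP63 and 5 and 1 upon SOX2 silencing in KYSE140. MCM8, a helicase of recombination, was the lowest upon TP63 silencing in TE5 (-1.05), then the histone-fold protein CENPS (-0.91, with 62.5% of its words in other genes, and uncertain), and the checkpoint clamp subunit RAD9A (0.65) and the helicase HELQ (0.50) were the highest. RAD9A and HELQ were the highest in KYSE140 too (0.59 and 0.76), where BABAM2 (-0.49) and CENPS (-0.46) were the lowest. Upon SOX2 silencing BABAM1, a subunit of the BRCA1-A complex, was the lowest in TE5 (-1.21), then PSMC3IP (-0.90), the partner of MND1 in recombination, and RTEL1 (0.63, uncertain, with 72.1% shared words) and the clamp subunit HUS1 (0.57) were the highest. In KYSE140 MND1 (-1.14) and the crosslink nuclease ERCC4 (-0.82) were the lowest and HUS1 (0.74) and RAD9A (0.56) the highest. Upon CCAT1 silencing the range was narrower, from RPA1 (-0.48) and FAAP20 (-0.38) to MND1 (0.42) and SFR1 (0.43). Between the knockdown libraries of a line, FANCB (-0.92) and HUS1 (-0.80) were the lowest and BABAM1 (1.00) and ERCC4 (0.75) the highest in TE5 for shTP63 against shSOX2, and HUS1 (-0.99) and FAAP20 (-0.45) the lowest and ERCC4 (1.01) and MND1 (0.99) the highest in KYSE140. The 10 genes of end joining, the other route of break repair, had medians of -0.41, -0.08 and -0.24 in the shTP63, shSOX2 and shCCAT1 libraries of TE5, and of -0.12 and -0.02 in KYSE140 shTP63 and shSOX2.

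The gene sums mix transcripts, and some members hold much of their level in transcripts with no coding sequence. BRCA2 in KYSE140 scramble held 1.54% of its TPM in a retained-intron transcript of 523 bases (ENST00000533776), against 18.8% to 28.9% in the other 6 libraries. With TPM its log2 fold change upon TP63 silencing in KYSE140 was 1.14, against 0.43 with counts. MRE11 held 39.8% to 46.6% of its TPM in a transcript with no defined coding sequence (ENST00000536144) in TE5 and 0.069% to 17.5% in KYSE140. CHEK2 transcript ENST00000328354 was listed at 0 in the 3 KYSE140 libraries and held 7.11% to 28.7% of the CHEK2 TPM in TE5. RBBP8 transcript ENST00000327155, in which the word shown above was found, held 46.9% to 57.7% of the gene's TPM in TE5 and 30.4% to 37.4% in KYSE140. The other RBBP8 transcripts were not searched for the word. In XRCC2 a transcript with no defined coding sequence held 56.0% to 75.4%. In FANCD2, 67.2% of the counts, in CHEK2 54.9%, in RAD50 47.4% and in UBE2T 97.0% come from transcripts that the annotation used here no longer lists, and for these genes a coding share says little.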

How the data were processed

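RNA-Seq libraries of TE5 (scramble, shTP63, shSOX2, shCCAT1) and KYSE140 (scramble, shTP63, shSOX2) were analysed, 1 per condition. Reads were assigned by the authors with Kallisto to an Ensembl transcriptome on hg19, and the deposited values are, per transcript, the estimated count (not scaled between libraries) and the TPM. The labels also name DESeq2. The Kallisto version is not given in the sources used here.

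Transcripts were summed to genes with GENCODE 44 on hg19 (93.6% of counts), by flanking genes (3.72%) or, for 283 transcripts, through the counts in the authors' gene tables, whose fold changes and p-values were not used. Unassigned transcripts (2.42% of counts) were left out of the pairwise values and kept as single features in the fit. CCAT1 was taken as transcript ENST00000500112. Counts were normalized with TMM (edgeR 4.0.16, R 4.3.3). The log2 fold change was log2((a + 1)/(b + 1)) of normalized counts, for genes reaching 10 estimated counts in either library, with a 95% interval that covers counting error only. The limits were 1.5-fold and 2-fold, and pairs were given no p-value. For both lines together, edgeR's quasi-likelihood test was run on rounded counts, with cell line as covariate, filterByExpr and a Benjamini-Hochberg adjusted p under 0.1 (2 residual degrees of freedom). The script was tested on simulated data, which had no difference between lines, a smaller spread and larger changes than the members showed. How often changes of the members' size would be called was not tested. Nothing in the labels says how the cultures of the lines were repeated, so these p-values measure only the spread between the libraries. DESeq2 1.42.0 and other alternatives of scaling, pseudocount, filter, unit and libraries were computed. Shared sequence was measured as the percent of a gene's 31-base words that occur in other genes, and genes with at least 50% are named as uncertain. Python 3.11.15 was used with pandas 2.3.3, numpy 2.4.6 and matplotlib 3.10.9.

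The members, the gene lists and the word GAAGGAT were chosen with earlier results of these data known. Named in full are the 3 lowest and 3 highest members of each pair with at least 100 counts, any member past 2-fold, the 3 smallest p-values of each fit, and BRCA1, BRCA2, FANCD2, ATM and ATR; of other pathway genes, the 2 lowest and 2 highest of each pair. 1 gene of the list of other pathway genes is not reported here and was left out.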

Additional observations from a re-analysis of the deposited data

Results flagged for a closer look

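With TP63 or SOX2 silenced, 3 of the 35 genes lay on opposite sides of scramble in TE5 and KYSE140, each by more than 1.2-fold and past its counting interval. Over genes in the members' count range the same rule held for 173 of 8836 upon TP63 silencing (2 members) and for 193 of 8813 upon SOX2 silencing (1 member). The difference between the lines was not tested, since each line has 1 library per condition. Upon TP63 silencing, XRCC2, which works in a complex with RAD51D, was at -0.83 in TE5 and at 0.38 in KYSE140. This holds for the gene sum and not for its protein-coding part. The coding share of XRCC2 counts was 28.4% in KYSE140 scramble and 17.2% in KYSE140 shTP63. The higher sum there is thus that of the transcript with no defined coding sequence. In TE5 that coding share was 28.5% in scramble and 33.3% in shTP63. DNA2, a nuclease and helicase of end resection, was at -0.53 in TE5 and at 0.38 in KYSE140 upon silencing of TP63. RAD54L, the motor protein of strand invasion, was at -0.30 in TE5 and at 0.29 in KYSE140 upon silencing of SOX2.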

How the results depend on the processing

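A pair of libraries has no replicate, and the fit over both lines has 2 residual degrees of freedom, so small differences cannot be told from the spread between cultures. Of 24 fold changes of a member past 1.5-fold in a pair, none changed sign under 5 alternatives, and 7 came within 1.5-fold under at least 1. Upon TP63 silencing in TE5, 7 members were past -1.5-fold both without scaling and with TPM, in place of 11, and the median was -0.20 and -0.27. Without scaling, CCAT1 silencing gave 1 member above 1.5-fold and a median of 0.26, SOX2 silencing in KYSE140 gave 2 below, shTP63 against shSOX2 gave 3 below and a median of -0.061 in TE5, and in KYSE140 5 above and a median of 0.29. With TPM the medians were -0.12 (TE5 shSOX2), 0.21 (TE5 shCCAT1), 0.14 (KYSE140 shTP63), -0.27 (KYSE140 shSOX2), -0.12 (TE5 shTP63 against shSOX2) and 0.41 (KYSE140 shTP63 against shSOX2), with 3 members below 1.5-fold in KYSE140 shSOX2, 3 above in TE5 shTP63 against shSOX2, 7 above in KYSE140 shTP63 against shSOX2, and 1 (BRCA2) above 1.5-fold and past 2-fold in KYSE140 shTP63. With protein-coding transcripts only, 2 members were above 1.5-fold in TE5 shCCAT1, 3 in KYSE140 shTP63, and 2 in shTP63 against shSOX2 in each line, where the median in KYSE140 was 0.24. The protein-coding share had a median of 88.6% by counts. In the fits, DESeq2 called 7, 1 and 5 members (TP63, SOX2, shTP63 against shSOX2) and leaving out the filter called 1 in each. Leaving out 1 library gave 0 to 4 members for TP63 silencing (4 without KYSE140 shTP63, and FANCE alone without TE5 shTP63 or either shSOX2 library), 0 to 1 for SOX2 silencing (RBBP8, without either shTP63 library) and 0 to 3 for shTP63 against shSOX2 (3 without KYSE140 shTP63, and FANCE alone without TE5 shTP63). A condition left with 1 library was then assumed to vary like the others. Leaving out 1 library put ATR between -0.066 and 0.20 upon TP63 silencing, and upon SOX2 silencing BRCA2 between -0.051 and 0.25, ATR between -0.074 and 0.20, and ATM between -0.059 and 0.019. ATM was also at 0.0064 without the filter and 0.0072 with all 7 libraries. For shTP63 against shSOX2, leaving out 1 library put BRCA1 between -0.11 and 0.47, BRCA2 between -0.016 and 0.35, FANCD2 between -0.18 and 0.18, and ATR between -0.13 and 0.13, while DESeq2, RLE normalization, no filter and all 7 libraries put ATR at -0.015, -0.015, -0.014 and -0.022 and DESeq2, RLE normalization and all 7 libraries put FANCD2 at -0.00037, -0.000545 and -0.0069. The cell line stood as the block of the fit. Without that term no member was called, and no number in the labels pairs libraries within a line. Leaving out XRCC3 and RAD54B, an alternative chosen after seeing the data, left each count in the comparisons with scramble within 1.5 times.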
